A study of Mus musculus with 4 samples.

Results

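The genes described here are 10 genes of the mature neutrophil, coding for surface receptors and effector proteins: S100a8, S100a9, Cxcr2, Csf3r, Retnlg, Ly6g, Padi4, Il1b, Trem1 and Trem3. They were chosen by symbol, with earlier results of these data known. All 10 were found among the 23763 genes of the deposited expression table. The table holds RNA sequencing of spleen from C57BL/6J mice at baseline, from ribosomal RNA-depleted, directional libraries. Of the 4 libraries, 2 are labelled wild-type (WT) and 2 are labelled KLHL3-KI, a knock-in of Klhl3, which encodes a substrate adaptor of a cullin-3 ubiquitin ligase. The sources used here give neither age, sex nor the knock-in allele. They do not say whether the libraries of a group came from separate mice. The p-values therefore rest only on spread between these libraries, partly pooled across genes, and that spread may be technical.

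Neutrophils are short-lived phagocytes that are made in the bone marrow and, in mice, also in the red pulp of the spleen. During maturation they first fill primary granules, then secondary and tertiary granules, and last put on the receptors that let them leave the marrow, sense bacteria and release inflammatory mediators. The genes described here belong mainly to that last stage, although S100a8 and S100a9 are transcribed from earlier stages on and Il1b and Trem1 are also transcribed by monocytes and macrophages.

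All but Trem3 matched a RefSeq promoter entry (build GRCm38.p6, credited to RefSeq), and the 250 bases before the start site were searched on both strands for 3 short motifs. These were TTNNGNAA, a loose form of the site of C/EBP factors, GAGGAA, the core of sites of the myeloid factor PU.1, and TATAAA, the TATA box. The windows of 4 genes are printed because they span the largest differences between the groups (S100a8 and S100a9), a receptor that varied little between replicates (Csf3r) and the cytokine gene of the set (Il1b). Capitals mark every match to any of the 3 motifs, and each sequence reads 5′ to 3′ toward the start site, which follows its last base.
The S100a8 window is chr3:90668821-90669070, plus strand.
S100a8: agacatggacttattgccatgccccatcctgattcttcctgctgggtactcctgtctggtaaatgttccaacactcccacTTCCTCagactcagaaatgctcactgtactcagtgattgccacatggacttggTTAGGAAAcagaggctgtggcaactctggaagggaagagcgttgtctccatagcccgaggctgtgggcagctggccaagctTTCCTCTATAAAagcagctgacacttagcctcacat
The S100a9 window is chr3:90695722-90695971, minus strand.
S100a9: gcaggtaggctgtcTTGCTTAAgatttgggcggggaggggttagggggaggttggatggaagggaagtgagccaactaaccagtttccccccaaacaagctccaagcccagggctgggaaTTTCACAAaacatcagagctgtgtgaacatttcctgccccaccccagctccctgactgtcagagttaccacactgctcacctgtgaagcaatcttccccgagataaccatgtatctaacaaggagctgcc
The Csf3r window is chr4:126024409-126024658, plus strand.
Csf3r: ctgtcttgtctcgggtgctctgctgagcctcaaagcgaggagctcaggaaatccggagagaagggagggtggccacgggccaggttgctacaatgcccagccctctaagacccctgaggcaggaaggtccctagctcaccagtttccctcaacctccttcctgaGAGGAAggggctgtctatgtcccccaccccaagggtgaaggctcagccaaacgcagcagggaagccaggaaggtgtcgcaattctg
The Il1b window is chr2:129371140-129371389, minus strand.
Il1b: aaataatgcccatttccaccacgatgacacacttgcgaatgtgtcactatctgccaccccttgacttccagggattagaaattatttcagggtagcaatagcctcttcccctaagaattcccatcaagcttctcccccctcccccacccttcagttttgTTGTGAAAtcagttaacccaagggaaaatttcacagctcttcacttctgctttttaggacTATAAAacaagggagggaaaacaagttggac
In the S100a8 window TATAAA begins 30 bases before the start site and directly follows a GAGGAA match on the other strand, without overlap. In the Il1b and Padi4 windows TATAAA begins 31 bases before the start site. The window of S100a9 holds 2 matches to TTNNGNAA and none to the other motifs, and that of Csf3r holds 1 match to GAGGAA. Of the 9 genes with an entry, 6 held TTNNGNAA, 5 held GAGGAA and 4 held TATAAA. Ly6g has 2 start sites with overlapping windows, and for it a match in either window was counted. Among all 32851 promoter windows of the same length, 36.8% held TTNNGNAA, 23.3% held GAGGAA and 12.4% held TATAAA. These matches describe the letters only.

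Every one of the 10 genes was higher in both KLHL3-KI libraries than in both WT libraries. The difference ran from 2.43-fold for the chemokine receptor gene Cxcr2 to 13.6-fold for S100a8, as the ratio of group means. All values below are normalized read counts, that is, reads divided by 1 factor per library, with n = 2 libraries per group, and errors are SDs. Differences were tested with limma on log2(value + 1), with Benjamini-Hochberg adjustment over the 16970 genes whose mean value reached 1. Limma draws each gene's variance toward a trend over all tested genes, so its SE and p do not give that gene's own spread alone. All 10 genes reached that mean and passed an adjusted p of 0.05 in the upward direction, where 15.2% of all tested genes did so (7.56% passed downward, and 22.8% in either direction). For 32.8% of tested genes both KLHL3-KI values lay above both WT values. Ly6g and Trem3 reached the minimum through the KLHL3-KI libraries only, so that they had to differ, and the count of 10 is a description. The 8 other genes had a WT mean of at least 1, and all 8 passed. This too is a description, because the genes were chosen with earlier results of these data known. The median log2 fold change of the 10 genes was 1.73, against -0.01 over all genes tested. In whole spleen, more neutrophils, more RNA per neutrophil, RNA from other cells and a changed mix of cells cannot be told apart.

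**Figure D1:**
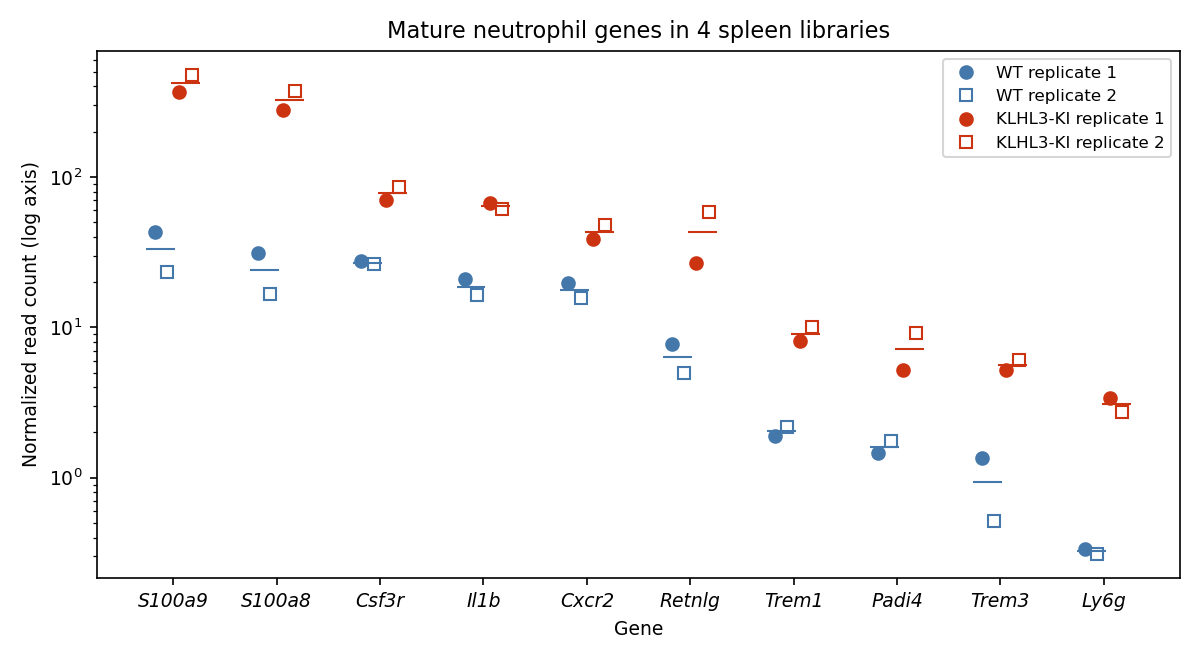
Normalized read count (log axis) of the 10 genes in each of the 4 libraries, ordered by their mean in KLHL3-KI, with circles for replicate 1, squares for replicate 2 and horizontal lines for group means (n = 2). For every gene the red KLHL3-KI points lie above the blue WT points.

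S100a8 and S100a9 encode the subunits of calprotectin, a calcium- and zinc-binding complex that fills the neutrophil cytosol. S100a8 (ENSMUSG00000056054) was measured at 31.2 and 16.7 in WT replicates 1 and 2, and at 279.5 and 373.7 in KLHL3-KI replicates 1 and 2. The lowest KLHL3-KI value lay far above the highest WT value, and WT replicate 1 was 1.87 times WT replicate 2. The group means were 23.96 ± 10.3 and 327 ± 66.6, or 3.76 apart on the log2 scale (SE 0.24, limma adjusted p = 5.32e-06). S100a9 (ENSMUSG00000056071) was measured at 43.1 and 23.4 in WT and at 369 and 479 in KLHL3-KI, again without overlap. With means of 33.2 ± 13.9 and 424 ± 77.6, its groups were 3.68 apart on the log2 scale (SE 0.23, limma adjusted p = 5.18e-06). With a robust variance model in limma the adjusted p rose to 0.0326 for S100a8 and 0.0329 for S100a9. The genes are neighbours in the RefSeq gene order and moved together across libraries. Per kilobase of exon, S100a9 was 1.83 and 1.86 times S100a8 in the WT libraries and 1.76 and 1.70 times in the KLHL3-KI libraries. This ratio was lower in both KLHL3-KI libraries, while the levels of the genes themselves rose more than 12-fold. In WT this gene pair held 47.9% and 37.0% of the reads of all 10 genes, against 74.2% and 75.2% in the KLHL3-KI libraries. The 10 genes together took 0.0162% and 0.0116% of all WT reads, against 0.0828% and 0.106% of all KLHL3-KI reads.

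The receptors that guide production and release of neutrophils rose least. Csf3r (ENSMUSG00000028859) encodes the receptor for granulocyte colony-stimulating factor (G-CSF), the cytokine that drives neutrophil production. It was measured at 27.6 and 26.3 in WT and at 70.6 and 85.7 in KLHL3-KI. The WT libraries differed by a factor of only 1.05, and the groups were 2.90-fold apart (1.50 on the log2 scale, SE 0.12, limma adjusted p = 2.24e-05). Cxcr2 (ENSMUSG00000026180) encodes the receptor for chemokines that call neutrophils out of the marrow and into tissue. It was measured at 19.7 and 15.8 in WT and at 38.7 and 47.6 in KLHL3-KI, with no overlap of the groups. Its difference of 1.24 on the log2 scale (SE 0.15, limma adjusted p = 3.36e-04) was the smallest of the 10. Stretches of the Csf3r and Cxcr2 transcripts closely match those of several other genes, so single reads could be shared. Both strands were searched and the strand of a match was not kept, so some matches may be antisense. The closest matches were 97.5% identical over 120 bases for Csf3r (Vmn1r84) and 98.45% over 129 bases for Cxcr2 (Gm37750).

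Ly6g (ENSMUSG00000022582) encodes the membrane-anchored surface protein by which mouse neutrophils are commonly sorted, and it had the fewest reads. It rested on 3 reads in each WT library and on 31 and 28 reads in the KLHL3-KI libraries, which gives values of 0.336 and 0.311 against 3.41 and 2.73. The ratio of pooled reads, scaled per library, was 9.44 with a 95% exact interval of 4.09 to 26.8, which covers counting error only. Its limma log2 fold change of 1.62 (SE 0.24, adjusted p = 0.00138) understates that ratio because a pseudocount of 1 exceeds the WT level. With edgeR on the recovered reads the log2 fold change was 3.18, and with a pseudocount of 5 it was 0.60. A stretch of the Ly6g transcript of 124 bases is 90.3% identical to Ly6c2, so single reads could be shared between them, with the same limit on strand as for Csf3r. Ly6c2, a monocyte gene, rose by 0.50 on the log2 scale (SE 0.12, limma adjusted p = 0.0144), a call that was lost without WT replicate 2 (0.135) and in 5 further settings.

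Retnlg (ENSMUSG00000022651) encodes resistin-like gamma, a secreted protein of myeloid cells. It was measured at 7.72 and 4.98 in WT and at 27.0 and 58.6 in KLHL3-KI. The groups did not overlap, but the KLHL3-KI libraries differed from each other by a factor of 2.17, the widest gap between the KLHL3-KI libraries among the 10 genes. The log2 fold change was 2.50 (SE 0.31, limma adjusted p = 4.08e-04), and it ran from 1.95 to 3.05 when 1 library was left out. With a robust variance model the call was lost (adjusted p = 0.0791, range over all alternatives 4.51e-10 to 0.0791), and 9 of the 10 genes passed upward, where 16.1% of all tested genes did.

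Padi4 (ENSMUSG00000025330) encodes the peptidylarginine deiminase that turns histone arginine into citrulline when neutrophils cast out chromatin as extracellular traps. It was measured at 1.45 and 1.76 in WT and at 5.18 and 9.15 in KLHL3-KI, resting on 13, 17, 47 and 94 reads. The lowest KLHL3-KI value was well above the WT values, and the 2 KLHL3-KI values were 1.77-fold apart. The log2 fold change was 1.60 (SE 0.26, limma adjusted p = 0.00214). Without KLHL3-KI replicate 2 it was 1.25, and without KLHL3-KI replicate 1 it was 1.96.

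Il1b (ENSMUSG00000027398), which encodes the inflammatory cytokine interleukin 1 beta, was measured at 20.8 and 16.4 in WT and at 67.1 and 61.5 in KLHL3-KI. It was 1 of only 2 genes, with Ly6g, that were lower in KLHL3-KI replicate 2 than in replicate 1. The group means were 18.6 ± 3.12 and 64.3 ± 3.97, 1.74 apart on the log2 scale (SE 0.13, limma adjusted p = 1.72e-05). An antisense gene, Il1bos, overlaps Il1b, and whether reads were counted by strand is not stated.

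Trem1 and Trem3 encode activating receptors of myeloid cells that signal through the adaptor DAP12 (gene Tyrobp), and they are neighbours in the RefSeq gene order. Trem1 (ENSMUSG00000042265) was measured at 1.90 and 2.18 in WT and at 8.15 and 10.03 in KLHL3-KI, a difference of 1.73 on the log2 scale (SE 0.20, limma adjusted p = 2.52e-04). Trem3 (ENSMUSG00000041754) was measured at 1.34 and 0.519 in WT and at 5.18 and 6.04 in KLHL3-KI, a difference of 1.81 on the log2 scale (SE 0.26, limma adjusted p = 0.00105). The groups were separate for both genes. A gene on the opposite strand, AC241601.2, overlaps Trem1, with the same limit on strand as for Il1b. Replicates of Trem1 lay close together, while WT replicate 1 of Trem3 was 2.59 times WT replicate 2, on 12 and 5 reads. The edgeR log2 fold changes were 2.13 for Trem1 and 2.58 for Trem3.

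**Figure D2:**
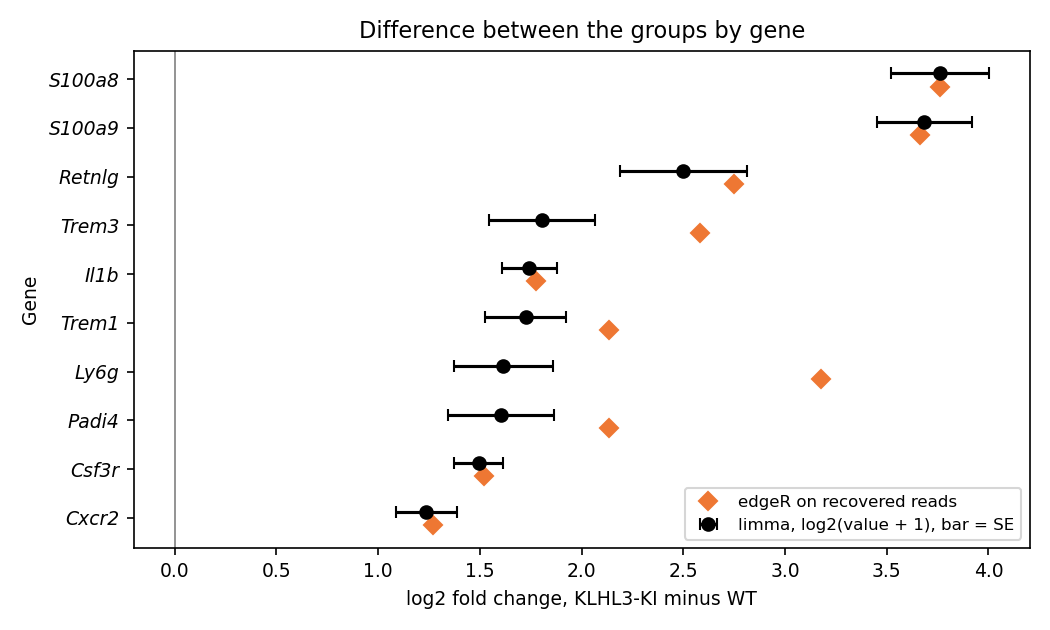
The log2 fold change (KLHL3-KI minus WT) of each gene, from limma on log2(value + 1) with its SE as the bar (black, 2 against 2 libraries) and from edgeR on the recovered reads (orange). The estimates lie together for the abundant genes such as S100a8 (3.76 and 3.76) and part for the scarce ones such as Ly6g (1.62 and 3.18).

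With edgeR all 10 genes passed an adjusted p of 0.05 upward, where 14.9% of all tested genes did. With DESeq2 all 9 genes that had an adjusted p passed upward, where 13.2% of all 15325 genes that had one did. Ly6g had none. Between replicates, 8 of the 10 genes were higher in WT replicate 1 than in WT replicate 2. Likewise, 8 of the 10 were higher in KLHL3-KI replicate 2 than in KLHL3-KI replicate 1. The shares over all tested genes were not computed, so these counts are a description only.

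Levels can be set side by side only per length. Per kilobase of exon, the order in WT was S100a9 (63.6), S100a8 (34.5), Retnlg (10.7), Il1b (9.76), Csf3r (7.47), Cxcr2 (5.82), Trem3 (0.936), Trem1 (0.681), Ly6g (0.343) and Padi4 (0.33), as group means. In WT the ranges of neighbours in this order overlapped for S100a9 and S100a8, for Retnlg and Il1b, for Trem3 and Trem1 and for Ly6g and Padi4. Within each WT library, however, S100a9 lay above S100a8 (1.83 and 1.86 times). In KLHL3-KI the order was S100a9 (812), S100a8 (471), Retnlg (72.2), Il1b (33.7), Csf3r (21.7), Cxcr2 (14.2), Trem3 (5.64), Ly6g (3.26), Trem1 (3.03) and Padi4 (1.48), and there the ranges of neighbours overlapped only for Ly6g and Trem1. The order was thus the same in both groups except for Trem1 and Ly6g.

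In these libraries the genes did not differ between the groups by 1 common factor. To compare them within a library, each was divided by Csf3r of the same library. S100a8 was 1.13 and 0.636 times Csf3r in WT and 3.96 and 4.36 times Csf3r in KLHL3-KI. Retnlg was 0.279 and 0.190 times Csf3r in WT and 0.382 and 0.684 times Csf3r in KLHL3-KI. For 7 of the 9 genes compared this ratio was higher in both KLHL3-KI libraries, for Cxcr2 it was lower (0.713 and 0.601 against 0.548 and 0.556), and for Il1b the groups overlapped. The share over all tested genes was not computed for this ratio, so these counts are a description only. An exact permutation test of 2 against 2 libraries cannot go below p = 0.33 (two-sided), the value it gave for the 8 genes without overlap, and it gave 0.67 for Il1b.

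**Figure D3:**
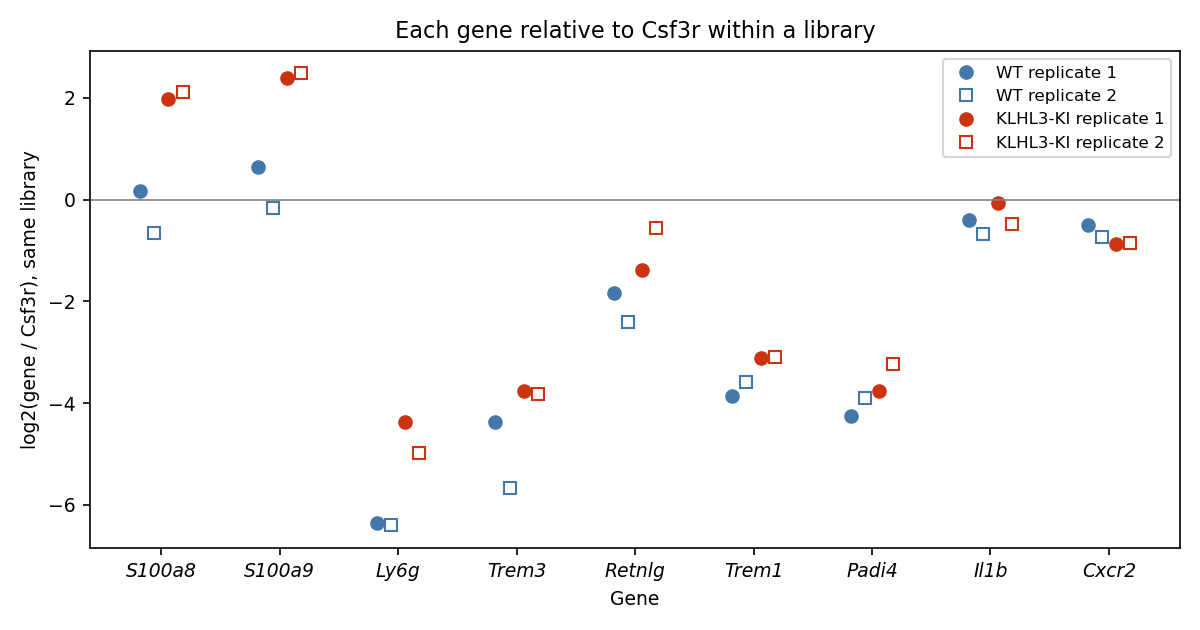
Each of the 9 other genes divided by Csf3r in the same library (log2), with circles for replicate 1 and squares for replicate 2, WT in blue and KLHL3-KI in red. S100a8 and S100a9 stand highest relative to Csf3r in KLHL3-KI, Il1b overlaps between the groups, and Cxcr2 lies lower in KLHL3-KI.

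Other genes of the neutrophil were read from the same fit, in which 15.2% of all tested genes rose and 7.56% fell. Genes with a WT mean under 1 reached the minimum through the KLHL3-KI libraries only and so had to differ, and each list is also given without them. Of 25 tested genes in a list of other mature neutrophil genes, 16 rose (median log2 fold change 0.81), and 11 of the 20 with a WT mean of at least 1 did so. Itgb2l, a neutrophil integrin subunit that reached the minimum through KLHL3-KI only, was at 0.499 ± 0.559 and 11.5 ± 3.38. The C-type lectin receptor gene Clec4e went from 1.96 ± 0.713 to 11.9 ± 1.82, and the MYC antagonist gene Mxd1 from 55.3 ± 3.62 to 177 ± 30.9, and both rose. Of 16 genes of secondary and tertiary granules, 15 rose (median 2.33), and 13 of the 14 with a WT mean of at least 1 did so. Among them were the collagenase gene Mmp8, from 2.00 ± 0.182 to 31.0 ± 5.86, and Mmp9, from 9.81 ± 0.520 to 47.1 ± 10.4. Of 11 genes of primary granules, 5 rose and none fell (median 1.15), and 3 of the 8 with a WT mean of at least 1 rose. Among them were Elane (neutrophil elastase), from 2.12 ± 0.798 to 41.6 ± 13.9, and Mpo (myeloperoxidase), from 7.86 ± 3.92 to 107 ± 30.1. The 6 primary granule genes that did not pass were Prss57, Srgn, Ctsc, Lyz2, Cst7 and Serpinb1a (named after their values were seen). Their log2 fold changes were 1.15, 0.14, 0.03, 0.02, -0.02 and -0.23.

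Receptors, ligands and signalling genes around the 10 genes were mixed. Of 13 chemoattractant and receptor genes, 8 rose and none fell (median 1.42), and 5 of the 10 with a WT mean of at least 1 rose. The highest log2 fold change of this list was 2.49 for Ackr1, from 2.32 ± 0.352 to 17.8 ± 4.15. Which cells carried it was not tested. Ppbp and Cxcl5 encode ligands of CXCR2, and Ppbp is also a platelet gene. Ppbp went from 67.6 ± 5.03 to 199 ± 29.97 and Cxcl5 from 0.759 ± 0.193 to 7.76 ± 2.10. Cxcl5 reached the minimum through KLHL3-KI only. The receptor gene Ccr1 rose from 8.05 ± 1.11 to 25.1 ± 4.18, while Cxcr4, the receptor that holds neutrophils in the marrow, was at 194 ± 31.2 and 208 ± 16.1 and did not pass (named after its values were seen). Of 23 genes of G-CSF receptor signalling and granulocyte transcription factors, 5 rose and 2 fell (median 0.00), shares not far from the 15.2% and 7.56% over all tested genes, and 4 of the 22 with a WT mean of at least 1 rose. The C/EBP factor genes Cebpd and Cebpb rose by 1.32 and 0.93 on the log2 scale (SE 0.17 and 0.16), as did Socs3, the feedback inhibitor of this receptor (0.84, SE 0.13). Cebpe, a C/EBP factor gene of granule formation, was at 0.551 ± 0.486 and 4.38 ± 1.52 and reached the minimum through KLHL3-KI only. Spi1, the gene of PU.1, was at 55.5 ± 0.942 and 57.3 ± 0.212 and did not pass (named after its values were seen). Csf3, the ligand gene, was not analysed here. The number of genes that fell in this list depended on the scaling: it was 5 after quantile normalization and 6 with equal totals.

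Of 20 genes of the interleukin 1 pathway and the inflammasome, only Il1r2, the decoy receptor gene, passed. It rose from 1.14 ± 0.289 to 10.2 ± 6.50 (log2 fold change 2.26, SE 0.36, limma adjusted p = 0.00174). Il1a was at 6.24 ± 0.279 and 9.27 ± 1.54 and did not pass, and the list's median was -0.08. After quantile normalization and with equal totals 4 and 5 genes of this list fell. Of 7 tested S100 genes other than S100a8 and S100a9, none passed with limma at an adjusted p of 0.05, with log2 fold changes from -0.43 to 0.33. At an unadjusted p of 0.05, 2 of these 7 differed, S100a10 and S100a11, where 35.5% of all tested genes did, and with edgeR 1 of them fell, where 7.98% of all tested genes did. S100a10 and S100a11 were named after their values were seen. Of 13 TREM family and adaptor genes, 5 rose and 3 fell (median 0.10). The immunoreceptor gene Cd300lb rose by 0.90 (SE 0.15), while Plcg2 and Lat2, signalling genes that B cells also use, fell by 0.61 (SE 0.10) and fell by 0.77 (SE 0.12). Of 9 Ly6 and resistin-like genes, only Ly6c2 passed. Of 8 peptidylarginine deiminase and phagocyte oxidase genes, only Lmnb1, the gene of a nuclear lamin that PADI4 can modify, passed (log2 fold change 1.27, SE 0.13), and Padi2 was at 20.6 ± 0.433 and 20.7 ± 1.78. After quantile normalization and with equal totals 3 genes of this list fell.

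**Figure D4:**
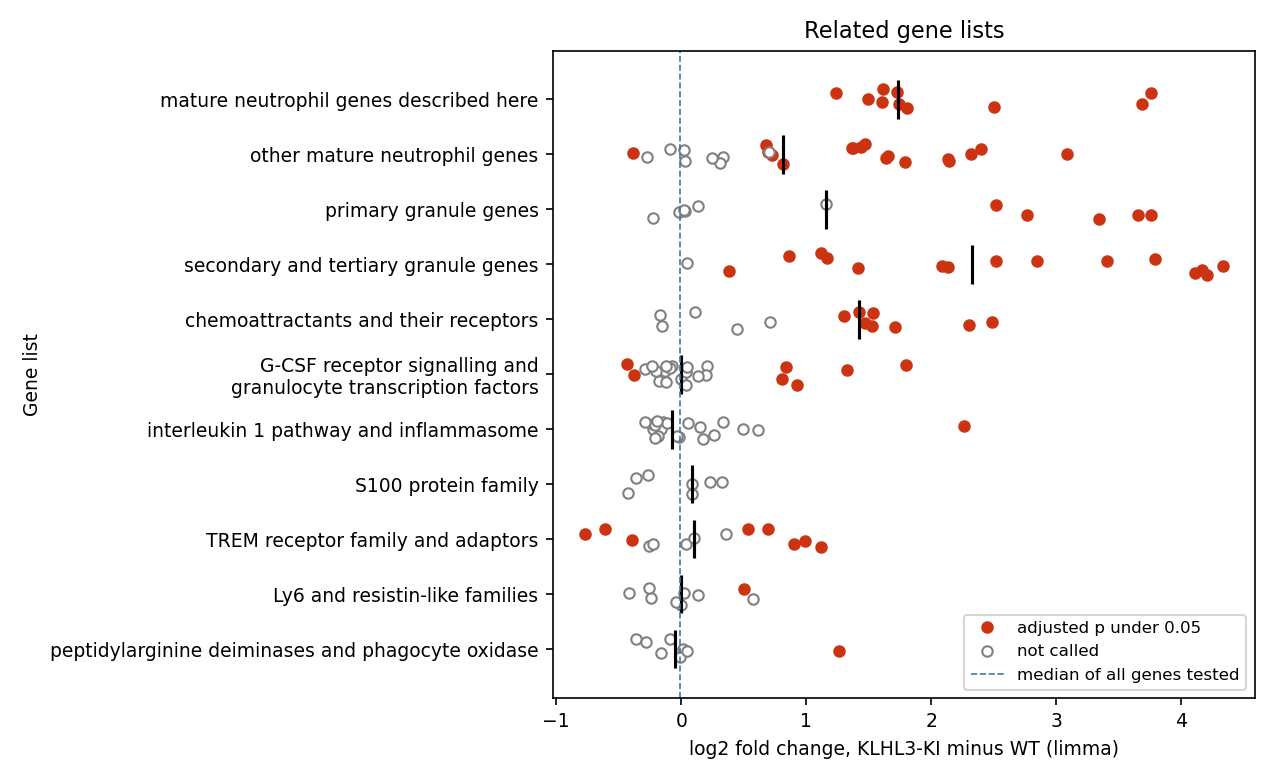
The limma log2 fold change (KLHL3-KI minus WT) of every tested gene in 11 lists, with filled points for an adjusted p under 0.05, open points for genes that were not called, a vertical bar at each list's median and a dashed line at the median of all tested genes (-0.01). The secondary and tertiary granule list reaches furthest to the right and has the highest median (2.33), while the interleukin 1, S100 and Ly6 lists centre near 0.

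Markers of other cells moved as well, and their part in the results above was not tested. Of 12 monocyte markers, 5 rose and 2 fell. F13a1 rose from 14.9 ± 1.93 to 49.6 ± 1.46 and Cd14 from 24.0 ± 0.207 to 65.4 ± 27.9, while Ace, a marker of the non-classical subset, fell from 29.96 ± 2.98 to 16.99 ± 0.352. Their summed value ran from 1157 to 1251 in WT and from 1310 to 1498 in KLHL3-KI. Of 12 red pulp and marginal zone macrophage markers, 2 (Vcam1 and Cd209b) rose, a share near the 15.2% over all tested genes, and none fell. For 10 of these 12 markers both KLHL3-KI values lay above both WT values, as for 32.8% of all tested genes. Their sums ran from 2436 to 2699 and from 3078 to 3248. Spic, which defines the red pulp macrophages of spleen, was present in all 4 libraries at 92.9 to 116. Of 9 eosinophil markers 5 rose (4 of the 8 with a WT mean of at least 1), with sums of 106 to 129 in WT and 206 to 270.3 in KLHL3-KI, among them Prg2 by 2.43 on the log2 scale (SE 0.20). Of 3 tested basophil and mast cell markers, Prss34 and Mcpt8 reached the minimum through KLHL3-KI only and the third did not pass, and the sum of 7 ran from 3.94 to 4.81 and from 10.02 to 13.5. All 7 erythroid markers and all 8 cell division markers rose, with sums of 1241 to 1566 and 667 to 773 in WT and of 5753 to 6473 and 3412 to 4111 in KLHL3-KI. Of 8 B cell markers 7 fell and all 8 T cell markers fell, and of 9 dendritic cell markers 2 fell. The B cell sums ran from 2986 to 3081 in WT and from 1729 to 2297 in KLHL3-KI, the T cell sums from 405 to 476 and from 244 to 283, and the dendritic cell sums from 286 to 308 and from 260.0 to 260.1. No marker of these lists that is in the table was at 0 in every library.

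The profile of the 10 genes over the 4 libraries, as the mean of their log2(value + 1) centred on each gene's own mean, was -0.89 and -1.22 in the WT libraries, against 0.90 and 1.22 in the KLHL3-KI libraries. The genes with the smallest Euclidean distance to that profile were Dtl, Hist3h2a, Oip5, Dlgap5 and Kntc1, at distances of 0.0350, 0.0554, 0.0689, 0.0691 and 0.0779 log2 units. Dtl and Hist3h2a serve DNA replication and chromatin, and Oip5, Dlgap5 and Kntc1 serve the centromere and spindle. Dtl was at 21.5 and 17.0 in WT and at 79.2 and 98.5 in KLHL3-KI. The 10 genes themselves lay at 0.387 (Trem3) to 1.69 (S100a8) from their own mean profile. This likeness rests on 4 libraries of 2 groups.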

How the data were processed

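RNA of 2 WT and 2 KLHL3-KI spleen libraries was measured, with groups and replicate numbers taken from the sample titles. Per the submitters' processing notes, Trimmomatic 0.38, Bowtie2, RSEM 1.3.0 and edgeR were used with build GRCm39. The sources used here do not give their roles, the annotation or any filter. The deposited signal, called normalized counts by the authors, was a whole multiple of 1 read's worth in 100% of values (within 0.001 read), so reads were recovered, 8535483 to 10933023 per library. Depth and n = 2 limit precision. Names came from GENCODE M21 (GRCm38), which matched 23605 of 23763 identifiers, and exon lengths from the same release.

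Genes with a mean of at least 1 (16970) were compared with limma 3.58.1 (R 4.3.3) on log2(value + 1), with a variance trend, two-sided, at an adjusted p of 0.05. The test was tried on simulated data. Alternatives were edgeR 4.0.16, DESeq2 1.42.0, other pseudocounts, filters, scalings and variance models, a replicate block and leaving out each library. Named genes were the 10 genes, up to 4 genes of lowest p per list and the 5 nearest profiles (predicted models, receptor segments and pseudogenes passed over). The 10 genes and all lists were chosen with earlier results of these data known. Lists share members (Cybb, Ly6c2 and Treml4 stand in 2 each). A result within the list of other mature neutrophil genes is not reported here.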

Additional observations from a re-analysis of the deposited data

How the results depend on the processing

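All 10 genes kept their upward direction in all 16 alternatives that tested them. Each stayed past an adjusted p of 0.05 wherever it had one, except Retnlg with the robust variance model (0.0791). With that model S100a8 (0.0326) and S100a9 (0.0329) also came near the threshold. The mean of at least 5 left out Ly6g, Padi4 and Trem3. With pseudocounts of 5 and 0.1 the log2 fold change was 0.60 and 2.90 for Ly6g, 0.84 and 2.59 for Trem3, 0.86 and 2.04 for Padi4 and 1.00 and 2.10 for Trem1. Quantile normalization and equal totals shifted the median of all genes to -0.10 and -0.16, and the S100a8 log2 fold change to 3.65 and 3.60. Of 3866 genes called, 2583 rose and 1283 fell, against 2041 and 2369 after quantile normalization and 1916 and 3130 with equal totals. Without a variance trend 2462 were called, and 1653 to 4530 without 1 library, with 2186 without WT replicate 1 and 1653 without WT replicate 2.

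Counts called in related lists moved over 1.5 times as follows, and the cause was not tested unless the filter removed genes. Chemoattractants went from 8 to 5 with a mean of at least 5, which left 10 genes. G-CSF signalling went from 7 to 11 with equal totals and to a range of 4 to 7 without 1 library (4 without either WT replicate). The interleukin 1 list went from 1 to 5 with quantile normalization and 6 with equal totals, and to a range of 1 to 3 without 1 library (3 without KLHL3-KI replicate 1). The S100 list went from 0 to 1 with a mean of at least 5, quantile normalization, equal totals, the robust model and edgeR, to 2 with the replicate block and to a range of 0 to 2 without 1 library (2 without KLHL3-KI replicate 1), in each case by falls. The TREM list went from 8 to 5 without a variance trend and to a range of 3 to 7 without 1 library (3 without WT replicate 2, 5 without KLHL3-KI replicate 2). The Ly6 list went from 1 to 2 with equal totals, DESeq2 and the replicate block, and to a range of 0 to 2 without 1 library (2 without KLHL3-KI replicate 1, 0 without each of the others). The deiminase and oxidase list went from 1 to 2 with a mean of at least 5, DESeq2 and the replicate block, to 4 with quantile normalization and with equal totals, to 3 with the robust model and to a range of 1 to 2 without 1 library (2 without KLHL3-KI replicate 1). The log2 fold change of Xcr1, a dendritic cell marker that was not called, ran from -0.35 to 0.0092 without 1 library and changed sign without WT replicate 1.

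Deviations of same-numbered libraries from their group means had r = -0.03 across 16970 genes, which are not independent. With 2 libraries per group this cannot exclude a pairing. The titles do not say what a replicate number marks, so the numbers were not used to pair. These numbers are those of the sample titles, and the deposited library names do not all carry the same numbers. With the replicate block 4130 genes were called and all 10 genes stayed called.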

Other observations

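In WT spleen 4 of the secondary and tertiary granule genes differed more between the replicates than any of the 10 genes did (chosen after the values were seen, and not tested). Camp, the gene of an antimicrobial peptide of secondary granules, was at 8.28 in WT replicate 1 and at 1.66 in WT replicate 2, a ratio of 4.99. Ltf (lactoferrin) was at 20.2 and 6.02, a ratio of 3.36, and Ngp at 24.7 and 8.51, a ratio of 2.91. Olfm4 had the highest ratio, 6.47, but on 6 reads and 1 read, and Orm1, with 2 reads and 0 reads, has no ratio. Over the 10 genes the same ratio ran from 0.824 for Padi4 to 2.59 for Trem3. The ratio was 1.14 for Mmp8 and 1.08 for Mmp9, which are also granule genes. In KLHL3-KI replicate 2 the values were 1.31 times those of replicate 1 for Camp, 1.34 times for Ltf and 1.39 times for Ngp.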
